A study of Homo sapiens with 6 samples.

Results

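The Tg sites in the interior of chromosome 19 are the deposited sites on that chromosome whose midpoint lies at least 5 Mb from both of its ends in hg38, a stretch of 48.6 Mb. They numbered 507 of 9373 sites (5.41%) in the list of NTHL1-/-,NEIL1-/- double knockout HEK293T cells and 176 of 3688 (4.77%) in the list of wild type HEK293T cells. HEK293T is an established line derived from human embryonic kidney and expresses the large T antigen of SV40. Each genotype had 2 libraries made by NTHL1 labelling and 1 input library, the cells received no treatment, and whether the double knockout line is 1 clone is not given in the sources used here. The data were 1 list of sites per genotype, so replicate error is unknown throughout and no difference between the genotypes could be tested. Intervals in brackets are exact 95% Poisson or binomial intervals and cover counting error only. The total number of reads per library is unknown.

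Thymine glycol (Tg, the base damage in thymidine glycol) forms when thymine is oxidised, and it blocks many DNA polymerases. NTHL1 and NEIL1 are DNA glycosylases that cut oxidised pyrimidines out of DNA and so start base excision repair. In DPC-Seq the NTHL1 protein is tied covalently to fragments of purified DNA at the damaged base, and the fragments that carry it are pulled down and sequenced. Chromosome 19 is the most gene-dense human chromosome and carries large clusters of C2H2 zinc finger genes, which encode DNA-binding repressors, beside clusters of kallikrein, cytochrome P450, SIGLEC and CEACAM genes.

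A genome sequence was not used here, so the letters under most sites cannot be shown. Promoter windows from RefSeq (GRCh38.p14; 250 bases before to 50 bases after a gene start) were compared with the sites by position. The 3 windows below are shown because they are those with the most bases inside a site among the 12 of 1190 that any site overlapped. Capitals mark the bases inside the site, and each is written 5′ to 3′ on the strand of its gene. KLK14, a secreted serine protease of the kallikrein family, lies on the minus strand, and its window is chr19:51084161-51084460. ZNF345, a zinc finger gene, lies on the plus strand, and its window is chr19:36851399-36851698. KCNN4, a calcium-activated potassium channel, lies on the minus strand, and its window is chr19:43780924-43781223.
KLK14: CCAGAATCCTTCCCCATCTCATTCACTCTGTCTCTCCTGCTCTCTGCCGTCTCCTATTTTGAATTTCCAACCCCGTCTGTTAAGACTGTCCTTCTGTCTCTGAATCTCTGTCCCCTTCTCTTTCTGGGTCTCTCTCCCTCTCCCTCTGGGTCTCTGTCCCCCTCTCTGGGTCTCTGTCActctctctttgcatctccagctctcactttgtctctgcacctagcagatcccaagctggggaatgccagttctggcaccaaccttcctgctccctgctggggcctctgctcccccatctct
ZNF345: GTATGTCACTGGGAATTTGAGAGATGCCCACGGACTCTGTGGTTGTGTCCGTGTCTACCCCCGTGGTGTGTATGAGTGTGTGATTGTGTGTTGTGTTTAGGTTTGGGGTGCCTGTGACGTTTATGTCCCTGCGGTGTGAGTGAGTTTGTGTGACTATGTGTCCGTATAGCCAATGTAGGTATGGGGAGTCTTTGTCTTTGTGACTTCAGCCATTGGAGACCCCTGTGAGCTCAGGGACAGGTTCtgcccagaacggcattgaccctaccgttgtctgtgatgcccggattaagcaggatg
KCNN4: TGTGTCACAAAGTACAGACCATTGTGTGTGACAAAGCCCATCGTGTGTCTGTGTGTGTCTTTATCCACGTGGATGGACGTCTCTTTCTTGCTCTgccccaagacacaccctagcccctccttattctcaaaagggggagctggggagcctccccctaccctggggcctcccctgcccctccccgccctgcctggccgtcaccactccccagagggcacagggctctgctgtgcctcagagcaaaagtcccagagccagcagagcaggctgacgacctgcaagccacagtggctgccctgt

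At KLK14 the double knockout site chr19:51084282-51084537 covered 179 bases of the window, of which 68 (37.99%) were T on the strand of the gene. This site had a fold enrichment of 3.17 and 11 reads at its summit, and the wild type list held no site in the window. In ZNF345 the double knockout site chr19:36850963-36851642 covered 244 bases, of which 84 (34.4%) were T, and it had a fold enrichment of 6.49 with 21 reads. At KCNN4 the double knockout site chr19:43781184-43781674 had a fold enrichment of 5.48 with 19 reads. The capitals there are those of the wild type site at the same place, chr19:43781130-43781570, which covered 94 bases with 33 T (35.1%) and had a fold enrichment of 7.64 with 20 reads. The sites at KLK14 and KCNN4 lay before the start of the gene, so they were not counted as sites in these genes. On the strand shown, the window of KLK14 holds the run CTCTCT, and those of ZNF345 and KCNN4 hold the run TGTGTG. These T shares do not stand for all 12 windows, where T inside the site ran from 2.70% at GFY to 37.99% at KLK14. They count 1 strand only, and T on the opposite strand reads as A here. The share of A inside the site was 45.9% at GFY and 9.50% at KLK14, so the T range does not rank the windows by thymine on both strands. Over whole windows the median was 19.8% T in the 12 with a site and 18.3% in all 1190.

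The interior of chromosome 19 held more Tg sites per length than the interior of any other chromosome in both lists. The double knockout list had 10.4 sites per Mb (9.54 to 11.4) here, against 2.53 per Mb in the interiors of the other chromosomes. The wild type list had 3.62 sites per Mb (3.11 to 4.196) here, against 0.880 per Mb in the other interiors. The ratio was 4.13 (3.76 to 4.52) in the double knockout list and 4.11 (3.51 to 4.79) in the wild type list. When sites under 100 kb apart were counted once, which joins more sites where they lie closer, the ratio was 1.99 (1.66 to 2.36) in the double knockout list and 3.37 (2.73 to 4.12) in the wild type list. The caller's local background at the members was a median of 2.12 times the lowest in the double knockout list, against 1.96 times at the sites of the other interiors. In the wild type list these medians were 2.20 and 2.34, and the part of local background in the number of sites was not tested. The next densest interior was that of chromosome 22, with 5.66 double knockout and 2.38 wild type sites per Mb. Chromosomes 16 and 17 had 3.77 and 3.44 double knockout sites per Mb, and 1.71 and 1.39 wild type sites per Mb.

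Chromosome 19 also had the most protein-coding genes per length of the 24 interiors, at 21.97 per Mb. Per 100 protein-coding genes it held 47.5 double knockout sites, the 10th highest value of 24, and 16.5 wild type sites, the 11th highest. Among 1 Mb windows with at least 30 protein-coding genes, the 16 windows of chromosome 19 averaged 15.75 double knockout sites (13.9 to 17.8), against 5.06 (4.45 to 5.74) in the 48 such windows of other chromosomes. In the wild type list the same windows averaged 5.06 sites (4.02 to 6.29) on chromosome 19 and 1.77 (1.41 to 2.19) elsewhere. Windows with 0 to 4 genes averaged 3.29 double knockout sites on chromosome 19 and 1.48 elsewhere, and 1 wild type site (0.402 to 2.06) on chromosome 19 against 0.513 elsewhere. With 5 to 9 genes the double knockout means were 5 (3.05 to 7.72) on chromosome 19 and 3.28 elsewhere, and the wild type means 1.25 (0.406 to 2.92) and 1.11. The chromosome 19 mean was the higher one in each class of gene number, but in the wild type list with 0 to 4 and 5 to 9 genes, and in the double knockout list with 5 to 9 genes, its interval included the mean elsewhere. Over the 48 full windows of chromosome 19 the variance of the counts was 5.58 times their mean in the double knockout list. In the wild type list it was 2.28 times. Poisson intervals assume that variance and mean are equal, so those given here are too narrow for the spread between windows. The part of gene number in the density of sites was not tested.

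**Figure D1:**
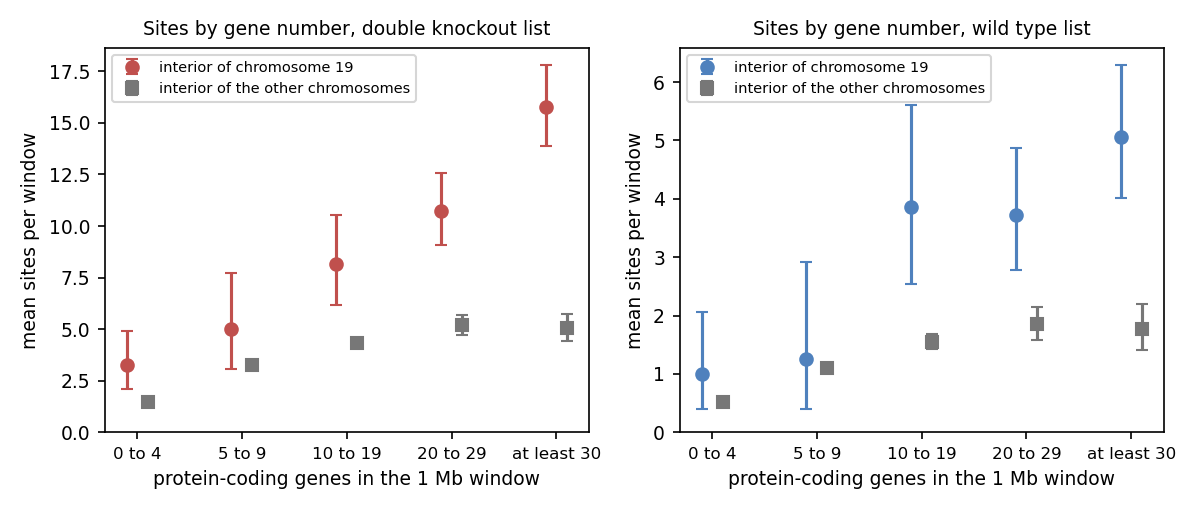
Mean number of Tg sites per 1 Mb window against the number of protein-coding genes in the window, for the double knockout list (left) and the wild type list (right). Circles are windows of the interior of chromosome 19, squares those of the other interiors, and bars are exact 95% Poisson intervals of the mean. The bars cover counting error only and are too narrow for the spread between windows. At 30 genes or more the double knockout means were 15.75 and 5.06.

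The members were ordinary sites in strength. Their width had a median of 401 bp (256 to 2397 bp) in the double knockout list and 405.5 bp (243 to 1465 bp) in the wild type list. The fold enrichment, which the authors' caller gives as reads at the summit over its background, had a median of 4.81 (2.61 to 9.23) in the double knockout list and 5.23 (3.02 to 8.39) in the wild type list. Reads at the summit, recovered from the deposited fold and p, had a median of 17 (9 to 40) and 13 (7 to 27) in the same order of lists. The interiors of the other chromosomes had the same median reads, 17 in the double knockout list and 13 in the wild type list. Their strongest sites reached further, with up to 452 and 405 reads. No member stood among the 100 sites of lowest q in either list, whereas 49 double knockout and 56 wild type sites of the other interiors did. The best member ranked 152 in the double knockout list and 182 in the wild type list.

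The strongest double knockout member was chr19:33458074-33458950 in PEPD, the gene of prolidase, which splits dipeptides that end in proline. It had a fold enrichment of 9.11 and 36 reads in the double knockout list, and the wild type site at the same place, chr19:33458077-33458587, had a fold enrichment of 7.12 and 19 reads. EPS15L1, an adaptor of endocytosis, held the member ranked next, chr19:16368168-16368873, with a fold enrichment of 8.60 and 35 reads, against 4.39 and 11 reads in the wild type list. The intergenic site chr19:30115906-30116887, whose nearest gene start was that of ZNF536, had a double knockout fold enrichment of 8.52 and 31 reads. ADAMTS10, a secreted metalloprotease of the extracellular matrix, held the double knockout member with the most reads at its summit, 40, at chr19:8609849-8610399, with a fold enrichment of 6.63. The largest double knockout fold enrichment, 9.23 with 28 reads, was at chr19:6132023-6133726 in the noncoding gene LOC105372255. The 10 double knockout members of lowest q also included sites in ATP4A, the stomach proton pump, with a fold enrichment of 8.97, in SIN3B, a corepressor scaffold, with 8.70, and in DMAC2, with 7.41. Of these 10, 8 overlapped a wild type site.

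The strongest wild type member was the intergenic site chr19:35392872-35393454, whose nearest start was that of GPR42, with a fold enrichment of 7.04 and 27 reads. The next was chr19:12990840-12991426, 4342 bp from the start of NFIX, a transcription factor of the nuclear factor I family, with a fold enrichment of 8.19 and 22 reads. The KCNN4 site shown above came after it. The largest wild type fold enrichment, 8.39 with 17 reads, was at chr19:41882402-41882831, 567 bp from the start of ARHGEF1, a guanine nucleotide exchange factor for RhoA. All 10 wild type members of lowest q overlapped a double knockout site.

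Sharing followed strength. Of the double knockout members 135 of 507 (26.6%, 22.8 to 30.7) overlapped a wild type site by at least 1 bp, and of the wild type members 138 of 176 (78.4%, 71.6 to 84.2) overlapped a double knockout site. In the interiors of the other chromosomes the shares were 23.7% of double knockout sites and 71.3% of wild type sites, and over the whole lists they were 28.3% of double knockout sites and 75.3% of wild type sites. With the stricter rule that most of each site lie in the overlap, 51.1% of wild type members were shared. When each list was divided by q into 4 equal parts, 53.7% of the double knockout members with the lowest q were shared and 8.89% of those with the highest. The wild type shares, from the part of lowest q to that of highest, were 93.9%, 77.6%, 81.6% and 66.0%, so they did not fall steadily. Shared double knockout members had a median fold enrichment of 5.67 and 22 reads, and unshared ones 4.65 and 16 reads. Shared wild type members had a median fold enrichment of 5.30 and 13 reads, and unshared ones 4.74 and 11 reads.

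The double knockout list was 2.88 times as long as the wild type list here (2.42 to 3.44), and 2.87 times (2.74 to 3.01) in the other interiors. The double knockout list also came from deeper data: the lowest background of the caller, which moves with depth and fragment length, was 1.69 times higher. With double knockout reads divided by this ratio and both lists cut at a −log10 p of 8.46, the wild type median, the interior of chromosome 19 kept 107 double knockout and 91 wild type sites. That is a ratio of 1.18 (0.881 to 1.57), against 1.17 (1.08 to 1.27) in the other interiors. Genotype and depth therefore cannot be told apart in the number of sites. At the 138 wild type sites with a double knockout partner, double knockout reads divided by 1.69 over wild type reads had a median of 0.941 (quartiles 0.788 and 1.18), against 0.937 in the other interiors. The lowest ratio, 0.422, was at ZSWIM4, with 10 double knockout reads and 14 wild type reads. The highest, 1.90, was at ATP4A, with 29 double knockout reads and 9 wild type reads. The counting interval of the ratio lay below 1 at 0 of 138 sites and above 1 at 0 of 138, against 3.25% and 0.399% of shared sites in the other interiors. At so few reads hardly any site could be called: the interval was 0.168 to 1.02 at the lowest ratio and 0.878 to 4.57 at the highest. The other interiors held sites of up to 452 double knockout and 405 wild type reads, so these shares are not like for like.

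**Figure D2:**
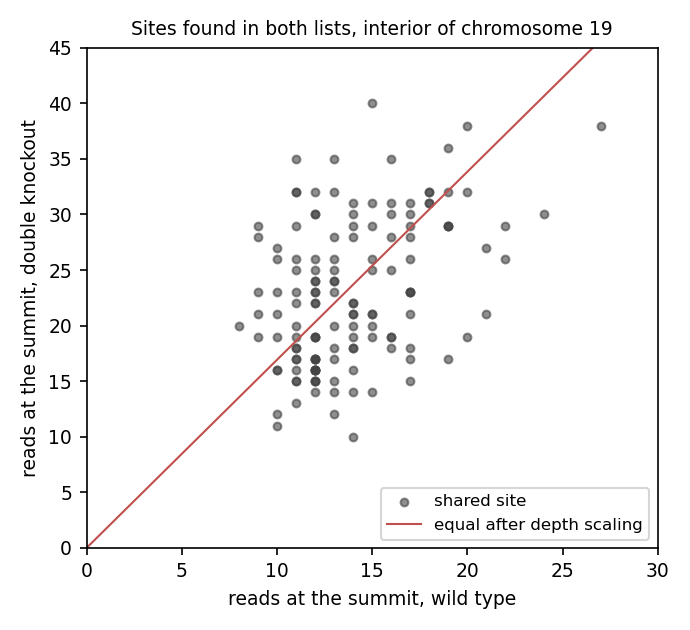
Reads at the summit in the double knockout list (vertical axis) and in the wild type list (horizontal axis) at the 138 wild type sites of the interior of chromosome 19 that overlap a double knockout site. The line marks equal reads after division by the depth ratio of 1.69; points lie on both sides of it, with 77 of 138 below.

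Along the chromosome the sites formed peaks and a wide gap. The arms were divided at the middle of the longest stretch without any annotated gene, 3.50 Mb between chr19:24179012 and chr19:27681071. The long arm held 339 double knockout and 108 wild type sites, and the short arm 168 double knockout and 68 wild type sites. In the double knockout list that is 12.2 sites per Mb on the long arm against 8.03 on the short arm, a ratio of 1.53 (1.26 to 1.85). In the wild type list it is 3.90 against 3.25, a ratio of 1.20 (0.878 to 1.65), and the difference between the lists' ratios was not tested. With sites under 100 kb apart counted once, the double knockout ratio was 1.19 (0.832 to 1.72). Protein-coding gene density was close on the arms, 22.4 per Mb on the long arm and 21.4 per Mb on the short arm. The median fold enrichment of double knockout sites was 4.79 on the long arm and 4.97 on the short arm.

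**Figure D3:**
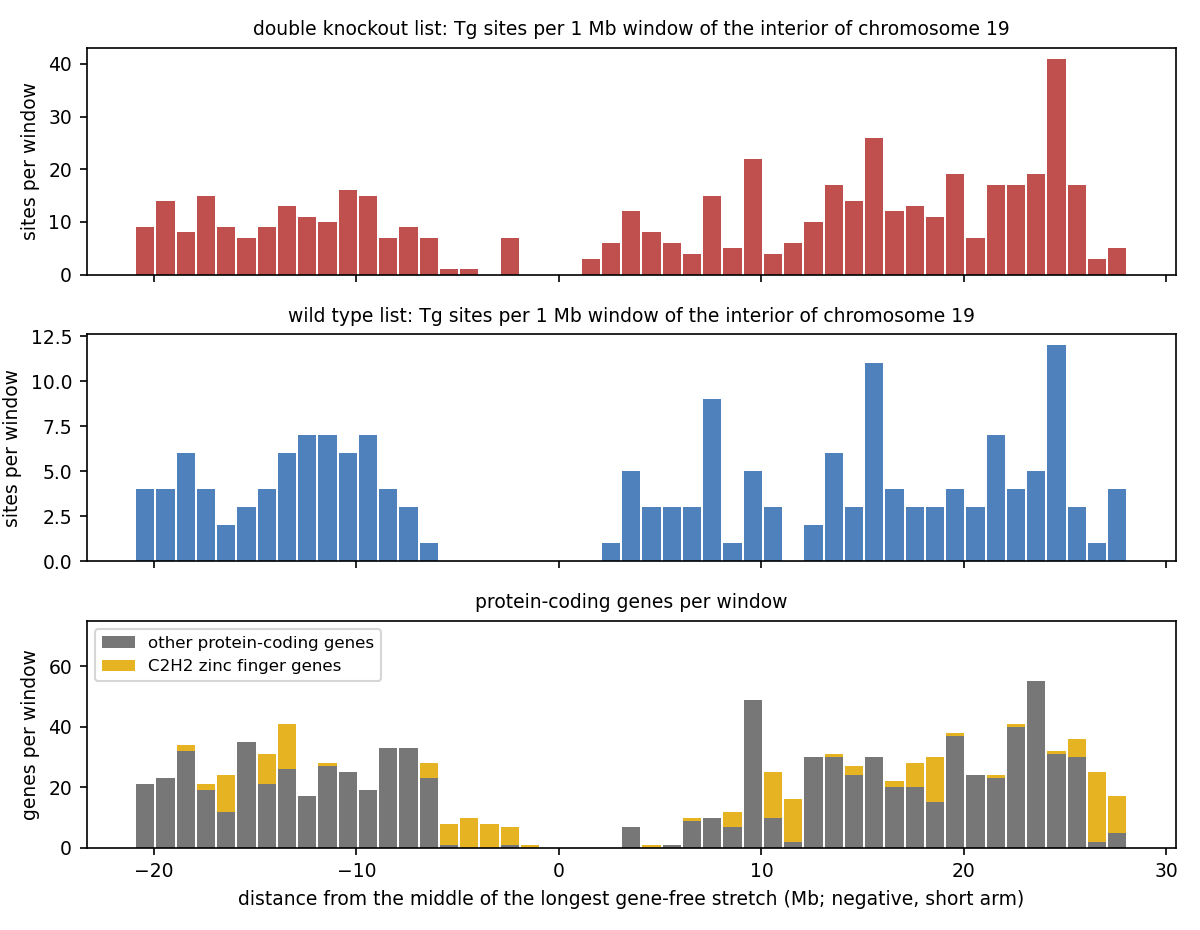
Number of Tg sites in each 1 Mb window of the interior of chromosome 19 for the double knockout list (top) and the wild type list (middle), with protein-coding genes below, zinc finger genes stacked on the others. The horizontal axis is the distance from the middle of the longest gene-free stretch, with the short arm negative, and the last window is shortened by the rule; the highest window holds 41 double knockout and 12 wild type sites, and the windows around 0 hold none.

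The 48 full windows of 1 Mb held a median of 9 double knockout sites and 3 wild type sites, against medians of 1 and 0 in the other interiors. No site was found in 4 windows of the double knockout list and 9 of the wild type list, against 34.9% and 60.8% of windows elsewhere. The order of the windows was alike in the lists, with a Spearman correlation of 0.803 over the 48 windows. These windows share one DNA sequence, one set of mappable bases and possibly one input. The number of protein-coding genes other than zinc finger genes had a Spearman correlation of 0.724 with double knockout sites and 0.632 with wild type sites. The number of zinc finger genes had correlations of -0.19 and -0.30 in the same order of lists.

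The window chr19:50000001-51000000 held the most sites, 41 in the double knockout list (29.4 to 55.6) and 12 in the wild type list (6.201 to 21.0). Its genes with sites included SHANK1, a scaffold of excitatory synapses, SYT3, a calcium sensor of vesicle fusion, and the kallikreins KLK2, KLK5 and KLK7. MYH14, a nonmuscle myosin heavy chain, held 2 double knockout sites, with fold enrichments of 4.23 and 5.02, and 0 wild type sites, while its neighbour in the same window, POLD1, the catalytic subunit of DNA polymerase delta, held none in either list. The window chr19:41000001-42000000 held 26 double knockout and 11 wild type sites, in ARHGEF1, ERFL and AXL among others. The window chr19:35000001-36000000 held 22 double knockout and 5 wild type sites, with FXYD1, FXYD7, ATP4A and MAG, a myelin adhesion molecule. The window chr19:33000001-34000000 stood higher in the wild type list, with 15 double knockout and 9 wild type sites. There PEPD and CHST8, a sulfotransferase, held 3 double knockout sites each. The 5 fullest windows held 25.05% of the double knockout members and 26.1% of the wild type members. Without the fullest window, the ratio to the other interiors was 3.87 in the double knockout list and 3.91 in the wild type list.

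The emptiest stretch lay around the gene-free stretch. No double knockout site was found for 3.87 Mb after chr19:23973820, and no wild type site for 9.07 Mb after chr19:19208144. The wild type stretch held 53 protein-coding genes, 37 of them zinc finger genes, and 16 double knockout sites. Those 16 had fold enrichments from 3.34 to 8.26 (median 4.44) and 11 to 27 reads. They lay in NCAN, a brain proteoglycan, HAPLN4, its link protein, YJEFN3 and ZNF708, and otherwise outside protein-coding genes. The strongest, chr19:27845419-27845787, had a fold enrichment of 8.26 with 27 reads.

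The nearest other site of the same list was a median of 15.9 kb away in the double knockout list and 50.7 kb in the wild type list, against 53.1 and 112 kb in the other interiors. Groups of at least 3 sites, each within 10 kb of the next, numbered 24 in the double knockout list and 5 in the wild type list. The largest double knockout group had 8 sites over chr19:41916253-41936920, with fold enrichments from 3.41 to 7.58. It began in the overlapping genes ARHGEF1 and ERFL and ran past their ends, at chr19:41930141 and chr19:41928449. Of its sites, 5 lay in ARHGEF1. The wild type group there had 5 sites over chr19:41914258-41926287, with fold enrichments from 3.02 to 5.85.

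Before the start of NFIX lay a row of sites that the lists placed at almost the same positions. The double knockout list had 6 sites over chr19:12982629-12991474, with 15, 30, 32, 25, 27 and 26 reads. The wild type list had 5 sites over chr19:12983903-12991426, with 17, 13, 12, 21 and 22 reads. All 5 wild type sites overlapped a double knockout site, and the double knockout site without a partner was the one with the fewest reads of the row. The FXYD genes gave the opposite picture. Over chr19:35132355-35152724 the double knockout list had 6 sites in LGI4, FXYD1 and FXYD7, with 18, 15, 16, 17, 23 and 16 reads, and the wild type list had 0.

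Most members lay in genes. Protein-coding gene bodies held 57.0% of the double knockout members (52.6 to 61.4) and 60.8% of the wild type members (53.2 to 68.1), against 51.1% of the bases outside the gene-free stretch. The outer 1 kb on either side of a protein-coding gene's start or end held 12.8% of double knockout and 11.4% of wild type members, against 8.37% of those bases. Intergenic DNA held 23.3% of double knockout and 24.4% of wild type members, against 30.0% of bases. Other genes, mostly noncoding, held 6.90% and 3.41%, against 10.5% of bases. None of the 63 microRNA hairpins of the interior overlapped a site of either list, and since the sites covered 5143 bp per Mb in the double knockout list and 1661 bp per Mb in the wild type list, so small a set shows nothing about hairpins.

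Around gene starts the summits were densest at 250 bp to 2 kb. Within 250 bp of the start of a protein-coding gene lay 3 double knockout summits and 1 wild type summit, 0.497 times (0.103 to 1.44) and 0.477 times the share of positions there, a count too low to set apart from 1. Between 250 and 500 bp the double knockout ratio was 2.54 (1.40 to 4.23), and between 500 and 1000 bp it was 2.75 (1.86 to 3.90). In the wild type list these ratios were 2.09 (0.573 to 5.26) and 2.73 (1.32 to 4.90). From 1 to 2 kb the ratios were 2.13 (1.56 to 2.83) in the double knockout list and 2.997 (1.89 to 4.44) in the wild type list. Beyond 100 kb from any start they were 0.534 and 0.496. The positions leave out the longest gene-free stretch. Starts were known for the 899 of 1068 protein-coding genes with a RefSeq promoter row. With each gene divided into 4 equal parts, the first held 30.0% of double knockout and 31.8% of wild type sites, and the last 19.7% and 15.9%.

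**Figure D4:**
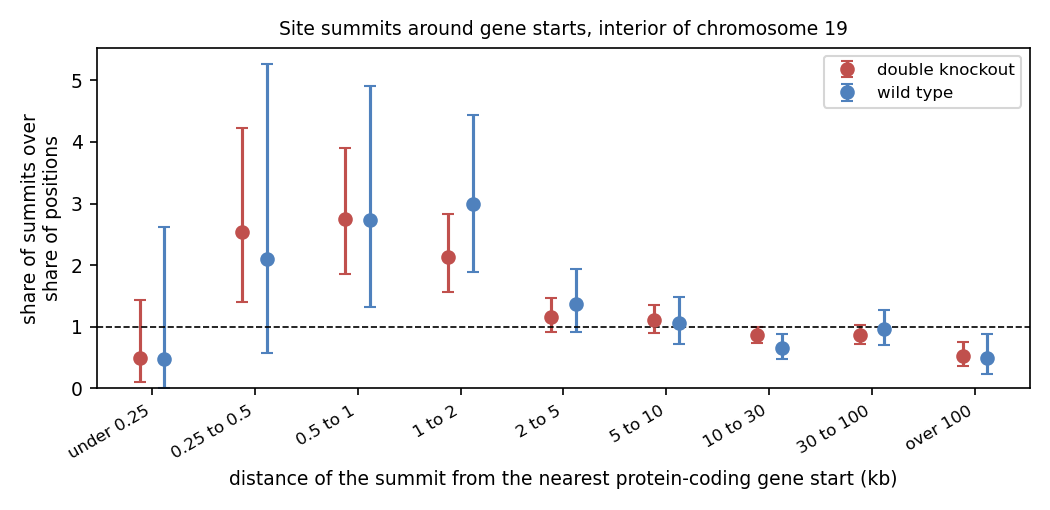
Share of site summits at each distance from the nearest protein-coding gene start, divided by the share of positions at that distance, for the double knockout list (left point of each pair) and the wild type list (right point). Positions are those of the interior of chromosome 19 without the longest gene-free stretch. Bars are exact 95% binomial intervals and the dashed line is a ratio of 1; the double knockout ratio was 2.75 at 0.5 to 1 kb and 0.497 within 0.25 kb.

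Of the 1190 promoter windows of the interior, sites overlapped 12 (1.01%): those of ZNF790, ZNF345, MARK4, NFKBID, KCNN4, KCNJ14, SLC17A7, GFY and KLK14 in the double knockout list, and those of OLFM2, PDE4A, C19orf81 and KCNN4 in the wild type list. ZNF790 and ZNF345 lie head to head and share 1 site. The summit fell inside the window only at KLK14. The 12 windows held a median of 6.5 CpG dinucleotides, and the other 1178 a median of 20. After the sequences had been read, the windows were searched on both strands for the motif TGTGTG and for the motif CTCTCT, whose matches can share at most 1 base with each other. At least 1 of these was present in 10 of the 12 windows (83.3%, 51.6 to 97.9) and in 447 of the other 1178 (37.9%). In the promoter table of the whole genome the share was 34.6%. On the other chromosomes, which were not used to choose the letters, 28 of 39 windows with a site (71.8%, 55.1 to 85.0) held 1 of them, against 7094 of 20612 without a site (34.4%). Among those 39 the share did not rise with overlap: 17 of 24 (70.8%) with at least 100 bp overlapped and 11 of 15 (73.3%) with less. Their windows also held a median of 6 CpG, against 21 without a site, and the part of CpG number in these shares was not tested. In the windows of OLFM2, NFKBID, MARK4 and GFY the match lay only outside the bases that the site covered. The letters were chosen from windows among these 12, so the share of the 12 is no test of the motifs. A match describes the letters of the window and not the position of a damaged base.

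At least 1 double knockout site lay in 223 of the 1068 protein-coding genes of the interior (20.9%), against 14% of protein-coding genes in the genome. At least 1 wild type site lay in 91 (8.52%), against 5.88%. Both lists marked 85 genes (7.96%), the double knockout list alone 138 (12.9%) and the wild type list alone 6 (0.562%). The matching shares over the genes of the genome were not counted. The double knockout list was 2.88 times as long here and 2.87 times in the other interiors, and the part of list length in these numbers was not tested. The share with a double knockout site was 11.6% with sites of a fold enrichment of at least 5, 8.61% with sites under 100 kb apart counted once, and 6.37% after depth scaling at the stricter threshold. Genes with a double knockout site were longer, with a median of 26.9 kb against 13.0 kb for those without. Among genes under 10 kb, 9.58% held a double knockout site on chromosome 19, against 2.17% in the other interiors, and 3.38% held a wild type site, against 0.832%. Among genes of at least 100 kb, 69.0% of 29 genes held a double knockout site, against 34.3% elsewhere, and 41.4% held a wild type site, against 14.04%. The part of gene length in these shares was not tested.

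ARHGEF1 (chr19:41883184-41930141) held the most sites over both lists, 5 in each. The double knockout sites had fold enrichments of 7.14, 7.58, 3.90, 3.41 and 5.18, and the wild type sites 3.77, 5.09, 3.02, 5.85 and 4.95. ERFL (chr19:41907704-41928449), which encodes an ETS domain protein, lies within the span of ARHGEF1 on the other strand, and its 4 double knockout and 5 wild type sites are also sites of ARHGEF1. PEPD (chr19:33386950-33521791) held 3 sites in each list, all shared, with 36, 26 and 26 double knockout reads and 19, 17 and 12 wild type reads. ZSWIM4 (chr19:13795443-13832254), which encodes a SWIM zinc finger protein, likewise held 3 shared sites in each list, with 10, 15 and 21 double knockout reads and 14, 12 and 15 wild type reads. NUMBL (chr19:40665905-40690651), which encodes a Numb-like regulator of Notch signalling, held 4 double knockout and 3 wild type sites. Its fold enrichments were 4.41 to 5.22 in the double knockout list and 4.69 to 5.23 in the wild type list. NOVA2 (chr19:45933734-45973865), a neuronal splicing factor, held 4 double knockout and 3 wild type sites, and all 3 wild type sites were shared. SHANK1 (chr19:50659255-50719802) also held 4 and 3, with 14, 15, 16 and 23 double knockout reads and 12, 17 and 12 wild type reads. AXL, a receptor tyrosine kinase, held 4 double knockout and 2 wild type sites, and both wild type sites lay under 1 broad double knockout site, chr19:41229696-41230785, with 35 reads. DOCK6, an activator of Rac and Cdc42, held 4 double knockout and 2 wild type sites, and SYT3 and FBN3, a fibrillin, held 3 and 2 each.

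Other genes had many double knockout sites and few or no wild type sites. MUC16 (chr19:8848844-9065751), which encodes a large mucin, held 7 double knockout sites with 17, 15, 11, 11, 11, 14 and 18 reads, and 1 wild type site with 14 reads. The wild type site lay under the double knockout site with the most reads. COL5A3 (chr19:9959561-10010504), a collagen V chain, held 6 double knockout sites with 10, 13, 22, 25, 19 and 26 reads, and 0 wild type sites. POU2F2 (chr19:42086110-42197936), the B cell transcription factor OCT2, held 6 double knockout sites with 25, 14, 14, 28, 25 and 20 reads, and 1 wild type site with 11 reads. ZNF536 (chr19:30225592-30713586), a neuronal zinc finger repressor, held 5 double knockout sites with fold enrichments of 3.41 to 7.02, and 0 wild type sites. PTPRS, a receptor tyrosine phosphatase, held 4 double knockout and 0 wild type sites, and FXYD1, NANOS3, which is needed by germ cells, and SPTBN4, a spectrin of axons, held 3 and 0 each. At 3 sites or fewer in a list the counting intervals are wide: 0 sites allow up to 3.69, and 3 sites span 0.619 to 8.77.

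Few genes went the other way. UNC13A (chr19:17601336-17688354), which primes synaptic vesicles, held 2 double knockout sites with 21 and 13 reads and 4 wild type sites with 11, 9, 21 and 12 reads. There 1 double knockout site covered 2 of the wild type sites. TDRD12, a factor of piRNA production, held 1 double knockout site with 29 reads, which covered 2 of its 3 wild type sites. PDE4A, a cAMP phosphodiesterase, held 0 double knockout sites and 2 wild type sites, with 14 and 9 reads. LGALS14, a placental galectin, and GNG8, a G protein gamma subunit, held 0 double knockout sites and 1 wild type site each.

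By length, FXYD1 was the densest gene with at least 3 sites in a list, at 50.7 double knockout and 0 wild type sites per 100 kb. ERFL had 19.3 double knockout and 24.1 wild type sites per 100 kb, and NUMBL 16.2 and 12.1. NANOS3 had 16.02 double knockout sites per 100 kb and 0 wild type sites. IGLON5, a neuronal adhesion molecule, had 15.6 double knockout and 5.20 wild type sites per 100 kb. COL5A3 had 11.8 double knockout and 0 wild type sites per 100 kb. NOVA2 had 9.97 double knockout sites per 100 kb, and NAPA, which helps to take membrane fusion complexes apart, had 9.83.

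The gene families that make chromosome 19 distinctive differed from each other. The zinc finger genes were seldom marked: 18 of 189 (9.52%) held a double knockout site and 4 (2.12%) a wild type site, against 20.9% and 8.52% of all genes of the interior. Per length they had 3.89 double knockout and 0.779 wild type sites per Mb of gene, against 13.2 and 4.87 over all genes, though their median length of 27.4 kb exceeded the 15.2 kb of all genes. ZNF536 and ZNF331, with 2 sites in each list, led them. The 8 windows with at least 10 zinc finger genes averaged 7 double knockout and 2.38 wild type sites. The 20 windows with 1 to 9 averaged 11.6 and 3.55, and the 20 windows with none 10.7 and 4.1. The double knockout mean thus did not fall steadily with the number of zinc finger genes. The olfactory receptors, which sense odours, had double knockout sites in 3 of 19 and wild type sites in 0. The CEACAM and PSG genes, cell adhesion and pregnancy proteins, had sites in 3 and 1 of 22.

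The kallikreins had double knockout sites in 7 of 15 genes (46.7%) and wild type sites in 3 (20%), against 20.9% and 8.52% of all genes of the interior. KLK7, which degrades skin desmosomes, held 2 sites in each list, with 15 and 30 double knockout reads and 11 and 24 wild type reads. KLK5, an activator of KLK7, held 2 double knockout sites with 11 and 21 reads and 1 wild type site with 14 reads, opposite the stronger of the 2. KLK2, a prostate kallikrein, held 2 double knockout and 0 wild type sites. KLK15 held 1 in each list, and KLK6, KLK12 and KLK14 held 1 double knockout site each. The site in KLK14 had a fold enrichment of 2.97 and is not the site at its promoter window shown above. The cytochrome P450 genes, which oxidise drugs and lipids, had double knockout sites in 6 of 12 (50%) and wild type sites in 1 (8.33%). CYP4F2, a fatty acid and vitamin K hydroxylase, held 2 in each list, with fold enrichments of 6.94 and 4.78 in the double knockout list and 7.00 and 6.47 in the wild type list. The SIGLEC group, sialic acid receptors of immune cells with CD33, CD22 and MAG, had sites in 4 (28.6%) and 2 (14.3%) of 14 genes.

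The list of genes of excitable cells, which also holds MYH14, had double knockout sites in 7 of 8 genes and wild type sites in 4 of 8. Over all genes of the interior the shares were 20.9% and 8.52%. They were 32.8% and 14.2% for genes of 30 to 100 kb, and 69.0% and 41.4% for genes of at least 100 kb. The list of excitable cells had the longest median gene length of the lists, 79.5 kb. Like the other lists it was chosen with earlier results of these data known, so its shares are not independent of them. CACNA1A, the P/Q type calcium channel, held 3 double knockout sites with 15, 19 and 13 reads and 1 wild type site with 12 reads. RYR1, the calcium release channel of skeletal muscle, held 3 double knockout and 0 wild type sites. GRIK5, a kainate receptor subunit, held 2 and 0, and GRIN2D, an NMDA receptor subunit, 1 and 1. The FXYD genes, small regulators of the sodium pump, had double knockout sites in 3 of 4 and wild type sites in 0. Potassium channel genes were marked in 2 of 6 in each list, KCNJ14 among them with 1 site in each list. In the Notch list NUMBL and NOTCH3 were marked in both lists, and DLL3, a divergent ligand, in neither.

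None of 8 ribosomal protein genes and none of 7 chorionic gonadotropin and LHB genes had a site in either list, with median lengths of 3.34 and 1.47 kb. The DNA repair and replication list had a double knockout site in 1 of 11, LIG1, the ligase that seals nicks in replication and repair, with a fold enrichment of 4.99, and a wild type site in 0. Of the chromatin genes SIN3B was marked, with 2 double knockout sites and 1 wild type site, and the other 6 were not. One apolipoprotein gene of 4, APOC4, and 1 interferon lambda gene of 3, IFNL1, held a double knockout site, and none of either held a wild type site. With lists this small a difference of a few genes is within counting error.

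**Figure D5:**
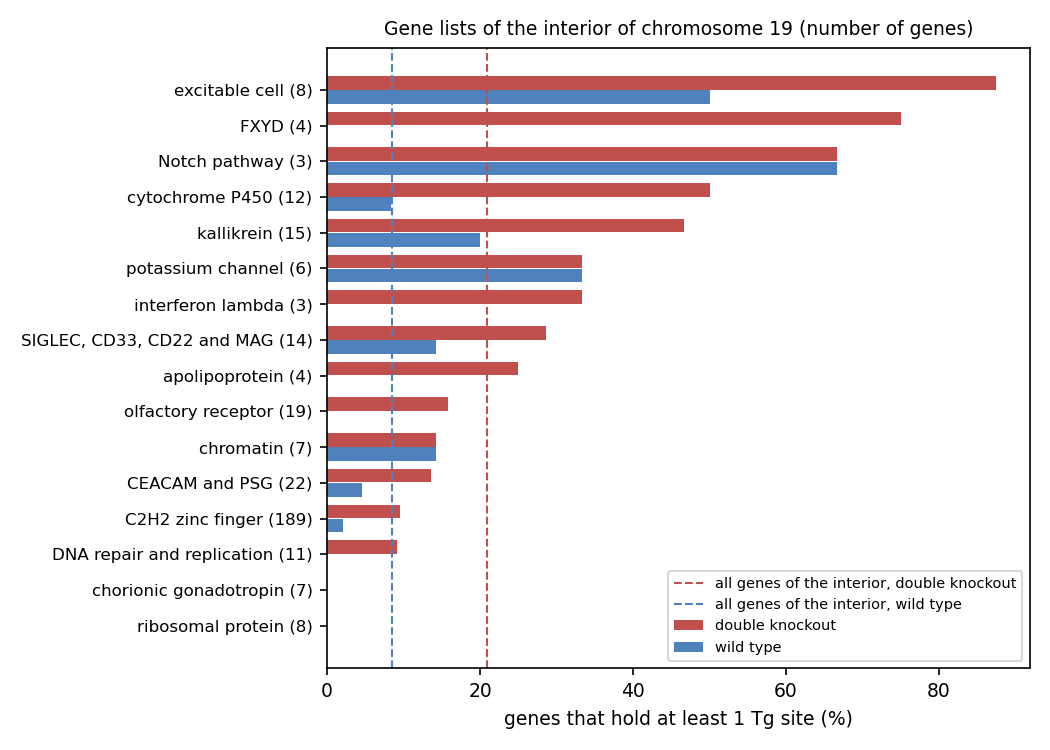
Percentage of the protein-coding genes of each list that hold at least 1 Tg site, for the double knockout list (upper bar) and the wild type list (lower bar), with the number of genes of each list in brackets. Dashed lines mark all 1068 genes of the interior, 20.9% in the double knockout list and 8.52% in the wild type list. The zinc finger bars, at 9.52% and 2.12%, lie left of them. The gene lists were chosen with earlier results of these data known.

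At the rule's own edges nothing changed abruptly in the double knockout list. Its outermost members lay 5.21 Mb from the short-arm end and 5.06 Mb from the long-arm end, with fold enrichments of 5.45 and 8.17, and the nearest sites outside lay at 4.83 and 4.75 Mb with 4.58 and 5.01. The wild type members nearest the edges lay 5.52 Mb from the short-arm end and 5.06 Mb from the long-arm end, with fold enrichments of 5.35 and 6.51, and the nearest sites outside at 4.62 and 4.71 Mb, with 3.75 and 6.58. The outer 5 Mb of the short arm held 11.2 double knockout and 7.2 wild type sites per Mb, and the outer 5 Mb of the long arm 9 and 3.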

How the data were processed

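Genomic DNA of HEK293T cells was labelled with NTHL1 and sequenced (DPC-Seq). For each genotype a single list of sites was deposited, matched to its libraries by the word dko or wt that it shares with their titles. The tools, per the submitters' processing notes, were deepTools, bedtools, MACS2 and Bowtie2, on hg38. Versions, settings, the pooling of libraries and the choice of input are not given in the sources. The deposited columns hold a score (10 times −log10 q, rounded down), a fold enrichment, which is a ratio of summit reads to background, and −log10 p and −log10 q from the authors' caller. They describe sites within their own list. The largest q was 0.0489 in the double knockout list and 0.0450 in the wild type list.

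Members and gene lists were chosen with earlier results of these data known. A site belongs to a window, arm or gene by its midpoint; overlap of at least 1 bp counted as shared. Whole reads at the summit were recovered from fold and p, with a pseudocount of 1 in both terms of the fold, and matched the deposited −log10 p within 0.001 at 100% of sites in both lists. The library depth is unknown; the ratio of lowest backgrounds, 1.69, served as divisor, and 1.61, without fragment length, as an alternative. Genes (20037 protein-coding), promoter windows and microRNAs came from RefSeq tables of GRCh38.p14. Named genes were the 15 with the most sites over both lists, the 10 with the most sites per 100 kb among those with at least 3 in a list, the 8 with the largest excess of double knockout and the 5 of wild type sites, genes at the 10 sites of lowest q of each list, members of the gene lists with a site, and genes of the 8 fullest windows. Genes of the empty stretch, the genes named at promoters and the row of sites before NFIX fall outside that rule and were named after their values were seen. Counts have exact Poisson and shares exact binomial intervals of 95%. The code was tested on simulated data. Python 3.11.15, numpy 2.4.6, pandas 2.3.3, scipy 1.17.1 and matplotlib 3.10.9 were used. Alternatives changed the q and fold thresholds, the joining of close sites, the distance from the ends, the fullest window, the depth, the length that counts, the overlap, the gene assignment and the divisor. Without a genome, exons and sequences of sites were not analysed here. Some genes that the naming rule picks are not reported here.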

Additional observations from a re-analysis of the deposited data

How the results depend on the processing

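Of 54 alternatives over 8 results, 42 stayed within the interval of the main value (for the shared reads, its quartiles), 12 moved out of it and 0 reversed. Joining sites under 100 kb apart gave a ratio to the other interiors of 1.99 in the double knockout list and 3.37 in the wild type list, a double knockout over wild type number of 1.33, a double knockout long over short arm ratio of 1.19, and 8.61% of genes with a double knockout site; it joins more sites where density is higher. Depth scaling at the stricter threshold gave a double knockout over wild type number of 1.18, 44.0% of wild type sites shared and 6.37% of genes. A fold enrichment of at least 5 gave 63.9% shared and 11.6% of genes. The shared percentage was 51.1% when most of each site had to overlap and 58.0% with summits within 200 bp. The ratio to the other interiors otherwise ranged from 3.87 to 4.35 in the double knockout list and from 3.91 to 4.33 in the wild type list. No paired analysis was possible because each genotype has 1 list with no values per library, and for the same reason no replicate could be left out. Where no cause is named, the cause was not tested. Depth limits what the lists show: the members had a median of 17 summit reads in the double knockout list and 13 in the wild type list, and a site's absence from a list does not show that Tg is absent there.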

Other observations

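Sites also lay in noncoding genes of the interior, counted here only where no protein-coding gene held the site. LINC02987 held 3 double knockout and 0 wild type sites, and LOC105372255 held 2 in each list. Both wild type sites of LOC105372255 overlapped the same double knockout site, chr19:6132023-6133726. A further double knockout site in it, chr19:6161377-6161771, also lay in the protein-coding gene ACSBG2 and was not counted. TMEM277P, a transcribed pseudogene, held 2 double knockout sites and 1 wild type site. Inside the cytochrome P450 and kallikrein clusters the pseudogene CYP2B7P held 2 double knockout and 0 wild type sites, and KLKP1 held 1 and 0. The noncoding genes were taken, after their values were seen, from all those with a site outside protein-coding genes.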
